A study of Mus musculus with 6 samples.

Results

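The genes described here are 7 genes of the Th17 program, the expression program of T helper cells that make interleukin-17. They are the cytokines Il17a, Il17f and Il22, the nuclear receptor Rora, the ligand-activated factor Ahr, and the receptor genes Il23r and Il1r1. They were taken by name from a table of 57180 genes and were selected on values of the same contrast that is reported below. Their levels are therefore given as a description, with no test. Of the 7 genes, 5 averaged 1 TPM or more across the 6 libraries and so entered the tested table, and Il23r and Il1r1 did not.

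The RNA came from lymphocytes isolated from tumors in mice bearing Hepa1-6, a mouse hepatoma line. All mice received TREND, a delivery system carrying plasmids for CasRx, a CRISPR nuclease that cuts RNA, by injection into the tail vein. The guide was a mock guide in 3 libraries (Mock sgRNA) and in the other 3 a guide that targets SLC43A2, which carries methionine and similar amino acids into cells (SLC43A2 sgRNA). Both groups thus carried the tumor, the delivery system and CasRx. Strain, sex, age, treatment time and any pooling of animals are not named in the sources used here. The labels number the libraries without saying that each came from its own mouse, so p-values measure the spread between these libraries, which may be technical. Values are TPM, a length-adjusted share of each library, and the depth of the libraries is unknown.

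Th17 cells are CD4+ T cells that arise when naive cells meet TGF-beta with IL-6 or IL-21, which act through Stat3 to induce nuclear receptors of the ROR family, RORa among them. IL-23 and IL-1, read through Il23r and Il1r1, sustain the cells, and the aryl hydrocarbon receptor Ahr promotes their production of IL-22. IL-17A, IL-17F and IL-22 act on epithelial and stromal cells, where they induce neutrophil-attracting chemokines and antimicrobial proteins. Gamma delta T cells and group 3 innate lymphoid cells use much of the same program.

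Several facts of the series bear on every value. The targeted gene, Slc43a2, had 6.68, 4.18 and 4.79 TPM under the mock guide and 3.5, 2.4 and 4.15 TPM under its own guide. Its log2 difference of -0.52 (SE 0.23) did not pass (limma, adjusted p = 0.113). Exons of Slc43a2 share 922 bases (9.18%) with Gm45606 on the opposite strand, so its values may hold reads of that gene. Of the 13759 genes tested, 45.1% passed an adjusted p of 0.05, with 22.8% higher and 22.2% lower in SLC43A2 sgRNA. Calls that were higher made up 50.6% of all calls, 62.2% after scaling to T cell receptor constant regions, and 44.4% with no filter on low values. The Y-linked gene Eif2s3y was at 45.3 to 55.57 TPM in Mock sgRNA and at 0.79 to 1.36 TPM in SLC43A2 sgRNA. Xist, which female cells express, was at 5.4, 3.18 and 4.36 TPM in Mock sgRNA and higher, at 9.64 to 11.88 TPM, in SLC43A2 sgRNA (adjusted p = 0.00372), so RNA of both kinds was present in each Mock sgRNA library. The guide and a difference in the sex of the cells cannot be told apart. In these bulk libraries, more cells of a type and more RNA per cell cannot be told apart either.

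The 3 cytokine genes were near 0 in Mock sgRNA and at 4.88 to 8.87 TPM in every SLC43A2 sgRNA library. Summed over Il17a, Il17f and Il22, they came to 0.52, 1.49 and 0.51 TPM in Mock sgRNA and to 18.65, 18.98 and 20.45 TPM in SLC43A2 sgRNA. The 4 other genes moved less. Rora, Ahr, Il23r and Il1r1 together summed to 7.21, 8.25 and 9.75 TPM in Mock sgRNA and to 14.61, 10 and 13.74 TPM in SLC43A2 sgRNA. In 4 of the 7 genes, Il17a, Il17f, Il22 and Il23r, every SLC43A2 sgRNA library lay above every Mock sgRNA library. Among all tested genes that share was 28.7%, and nothing is read from the comparison because the genes were picked for this contrast.

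**Figure D1:**
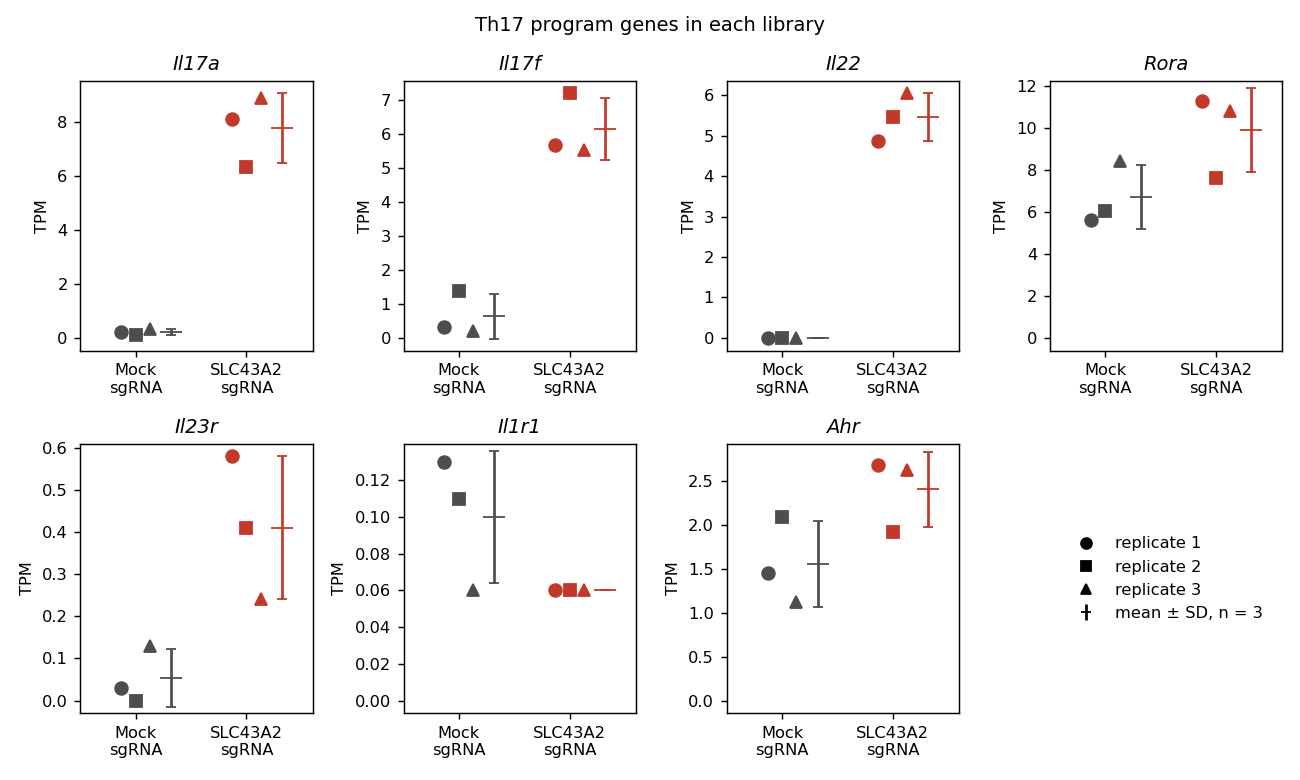
TPM of each of the 7 Th17 genes in the 6 libraries, with one panel per gene on its own linear axis; points are libraries, and bars are the group mean with its SD (n = 3). Il17a, Il17f, Il22 and Il23r separate into non-overlapping groups, whereas Rora, Ahr and Il1r1 overlap.

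Il17a encodes IL-17A, the cytokine that gives the cells their name. In replicate order its Mock sgRNA values were 0.2, 0.11 and 0.32 TPM, and its SLC43A2 sgRNA values were 8.09, 6.33 and 8.87 TPM. All 3 SLC43A2 sgRNA values were far above the Mock sgRNA range, with replicate 2 the lowest of them. The means of 0.21 ± 0.105 and 7.76 ± 1.30 TPM (SD, n = 3 each) give a ratio of 37.0, and the difference in log2(TPM + 1) was 2.85. A ratio against a mean this close to 0 is imprecise.

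Il17f encodes IL-17F, which pairs with itself or with IL-17A and signals through the same receptor. It was at 0.32, 1.38 and 0.19 TPM in Mock sgRNA and at 5.68, 7.19 and 5.53 TPM in SLC43A2 sgRNA. Replicate 2 was the highest library in each group, and the groups did not overlap. Mean levels were 0.63 ± 0.653 and 6.13 ± 0.918 TPM (SD, n = 3 each), a ratio of 9.73 and a log2 difference of 2.19. Without Mock sgRNA replicate 2 the log2 difference was 2.50. The balance of the pair varied between libraries: the ratio of Il17a to Il17f in TPM was 0.625, 0.0797 and 1.68 in Mock sgRNA and 1.42, 0.88 and 1.6 in SLC43A2 sgRNA. These ratios overlapped between the groups, and those of Mock sgRNA rest on values near 0.

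Il17a and Il17f are neighbors on GRCm38 chromosome 1, in GENCODE M21. Il17a (ENSMUSG00000025929) lies at 20730905 to 20734496 on the plus strand and Il17f (ENSMUSG00000041872) at 20777146 to 20790617 on the minus strand. They are 42649 bases apart with 0 annotated genes between them. Because both were high together, the 250 bases before each RefSeq start (GRCm38.p6) are shown, read 5′ to 3′ on the gene's own strand. The Il17f window lies inside the M21 span given above, so its RefSeq start is not the M21 gene start. Capitals mark AGGTCA on either strand, the core that ROR proteins bind, and TATAAA, the TATA box.
Il17a, chr1:20730655-20730904, plus strand: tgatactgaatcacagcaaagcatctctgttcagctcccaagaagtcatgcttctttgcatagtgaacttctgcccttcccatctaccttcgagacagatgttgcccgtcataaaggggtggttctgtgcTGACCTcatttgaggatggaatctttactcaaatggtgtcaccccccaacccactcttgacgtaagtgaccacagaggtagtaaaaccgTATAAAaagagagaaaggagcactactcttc
Il17f, chr1:20784271-20784520, minus strand: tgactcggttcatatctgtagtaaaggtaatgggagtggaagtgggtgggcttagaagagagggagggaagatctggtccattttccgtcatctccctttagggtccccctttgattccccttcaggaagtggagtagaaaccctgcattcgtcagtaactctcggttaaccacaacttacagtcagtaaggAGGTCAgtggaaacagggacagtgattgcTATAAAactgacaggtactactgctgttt
In the Il17a window AGGTCA is on the opposite strand, 120 to 115 bases before the start, and TATAAA is at 31 to 26 bases before it. In the Il17f window AGGTCA is on the gene's strand at 58 to 53 bases, and TATAAA is at 29 to 24 bases. AGGTCA on either strand is present in 14% of all 32851 RefSeq promoter windows of this length and TATAAA in 12.4%. Of the other genes described here, Ahr had no RefSeq window, and Il23r has AGGTCA at 229 to 224 and at 66 to 61 bases before its start. Strings of the factors AHR, NFAT, AP-1 and STAT were searched too. The AP-1 string TGANTCA, in 6.75% of all windows, matched for Il17a. The NFAT core GGAAA, in 55.6%, matched for Il17f, Il1r1, Il22, Il23r and Rora. The AHR core GCGTG, in 28.2%, matched for Il1r1 and Rora, and the STAT string matched for none. A match is a string of letters, and binding was not measured.

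Il22 encodes IL-22, a cytokine of the IL-10 family that acts on epithelial cells. It was listed at 0 in all 3 Mock sgRNA libraries and stood at 4.88, 5.46 and 6.05 TPM in SLC43A2 sgRNA. Of the 3 cytokines it had the least spread between SLC43A2 sgRNA libraries, with a mean of 5.46 ± 0.585 TPM (SD, n = 3). No ratio is given against a group listed at 0, and the difference in log2(TPM + 1) was 2.69. A near-identical copy, Il22b, lies 79581 bases away in GENCODE M21, where it is named Iltifb. Il22b was at 0.11 TPM in Mock sgRNA replicate 2 and listed at 0 in the other 5 libraries. How reads shared by the copies were assigned is not given in the sources used here, so the Il22 values may hold reads of both.

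Rora encodes RORa, a nuclear receptor that promotes Il17a expression in Th17 cells and also serves other lymphocytes, among them group 2 innate lymphoid cells. It was the highest of the 7 genes in every library, at 5.6, 6.05 and 8.43 TPM in Mock sgRNA and at 11.28, 7.61 and 10.81 TPM in SLC43A2 sgRNA. The groups overlapped, because SLC43A2 sgRNA replicate 2 lay below Mock sgRNA replicate 3. Its means of 6.69 ± 1.52 and 9.90 ± 2.00 TPM (SD, n = 3 each) give a ratio of 1.48 and a log2 difference of 0.50. Leaving out 1 library at a time moved that difference from 0.40, without Mock sgRNA replicate 1, to 0.66, without SLC43A2 sgRNA replicate 2.

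Ahr encodes the aryl hydrocarbon receptor, a sensor of dietary, microbial and tryptophan-derived ligands on which IL-22 production depends. It was at 1.45, 2.09 and 1.13 TPM in Mock sgRNA and at 2.69, 1.92 and 2.63 TPM in SLC43A2 sgRNA. Replicate 2 again made the groups overlap, being the highest Mock sgRNA library and the lowest SLC43A2 sgRNA library. Means were 1.56 ± 0.489 and 2.41 ± 0.428 TPM (SD, n = 3 each), a ratio of 1.55 and a log2 difference of 0.43. Without Mock sgRNA replicate 2 the difference was 0.57, and without Mock sgRNA replicate 3 it was 0.30. Rora shares 82 exon bases (0.627%) with Gm15511 and Ahr shares 127 (2.06%) with Gm48236, both on the opposite strand. The library kit named in the labels does not distinguish strands, but that protocol text may not describe these samples.

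Il23r encodes the specific chain of the IL-23 receptor, which pairs with the product of Il12rb1. It was at 0.03, 0 and 0.13 TPM in Mock sgRNA and at 0.58, 0.41 and 0.24 TPM in SLC43A2 sgRNA. Every SLC43A2 sgRNA value lay above every Mock sgRNA value, yet the level stayed below 1 TPM in all 6 libraries. The mean levels of 0.0533 ± 0.0681 and 0.41 ± 0.17 TPM (SD, n = 3 each) have a ratio of 7.69, and the difference in log2(TPM + 1) was 0.42. At a pseudocount of 0.1 in place of 1 the difference was 1.77, so its size depends on that choice.

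Il1r1 encodes the signaling receptor for IL-1. It was at 0.13, 0.11 and 0.06 TPM in Mock sgRNA and at 0.06 TPM in each SLC43A2 sgRNA library. It was the lowest of the 7 genes in SLC43A2 sgRNA and the only one whose mean was lower there, at 0.06 against 0.10 ± 0.0361 TPM (SD, n = 3). The groups met at 0.06 TPM, and the log2 difference was -0.05. The high cytokine levels were thus measured in libraries with Il1r1 close to 0.

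Within Mock sgRNA the order of mean TPM was Rora, Ahr, Il17f, Il17a, Il1r1, Il23r and Il22. Only Rora and Ahr were neighbors whose libraries did not overlap. In SLC43A2 sgRNA the order was Rora, Il17a, Il17f, Il22, Ahr, Il23r and Il1r1. There the first 4 genes overlapped with their neighbors, and a gap separated Il22 from Ahr, Ahr from Il23r and Il23r from Il1r1. The cytokines thus stood below Ahr in the first group and above it in the second.

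Profiles were compared as the root mean square difference over the 6 libraries between log2(TPM + 1) values centered on each gene's own mean. These distances depend on the pseudocount of 1, because the 3 cytokine genes were near 0 in Mock sgRNA. The log2 differences of Il17a and Il22 were 2.85 and 2.69 at that pseudocount but 4.71 and 5.79 at 0.1. Distances and nearest genes were computed only at a pseudocount of 1. Among the 5 genes that passed the filter, Il17a and Il22 were the closest pair, at 0.17, whereas Il17a and Il17f differed by 0.551. Il17f and Il22 differed by 0.419, and Rora and Ahr by 0.295. Among other genes, the 3 nearest to Il17a were Prss16, a serine protease of the thymus, at 0.105, Bnip3, a mitophagy receptor induced by hypoxia, at 0.145, and Il22. Nearest to Il17f were Il2, a growth factor of T cells, at 0.17, Adh1, an alcohol dehydrogenase, at 0.209, and AA467197 at 0.245. Il22 was nearest to Prss16 at 0.154 and to Crem, a cyclic AMP responsive repressor, at 0.167, followed by Il17a. Rora was nearest to Rrs1 at 0.033, Inpp5b at 0.041 and Pja1 at 0.041, and Ahr to Armc6 at 0.047, Pgrmc2 at 0.058 and Wdr91 at 0.059.

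The rest of the pathway was taken from 12 lists, with the 7 genes left out. These lists hold 137 genes of the table, of which 95 were tested. Of the 95, 34 were higher, 24 were lower and 37 did not pass, so 61.1% passed, against 45.1% of all tested genes. The lists were chosen with earlier results of these data known, so nothing is read from that share or from those of single lists. The median log2 difference of the 95 genes was -0.01, beside 0.03 over all tested genes. SLC43A2 sgRNA replicate 2 was the lowest of its group in 28 of the 34 genes that were higher (82.4%), and in 67.7% of all genes that were higher.

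**Figure D2:**
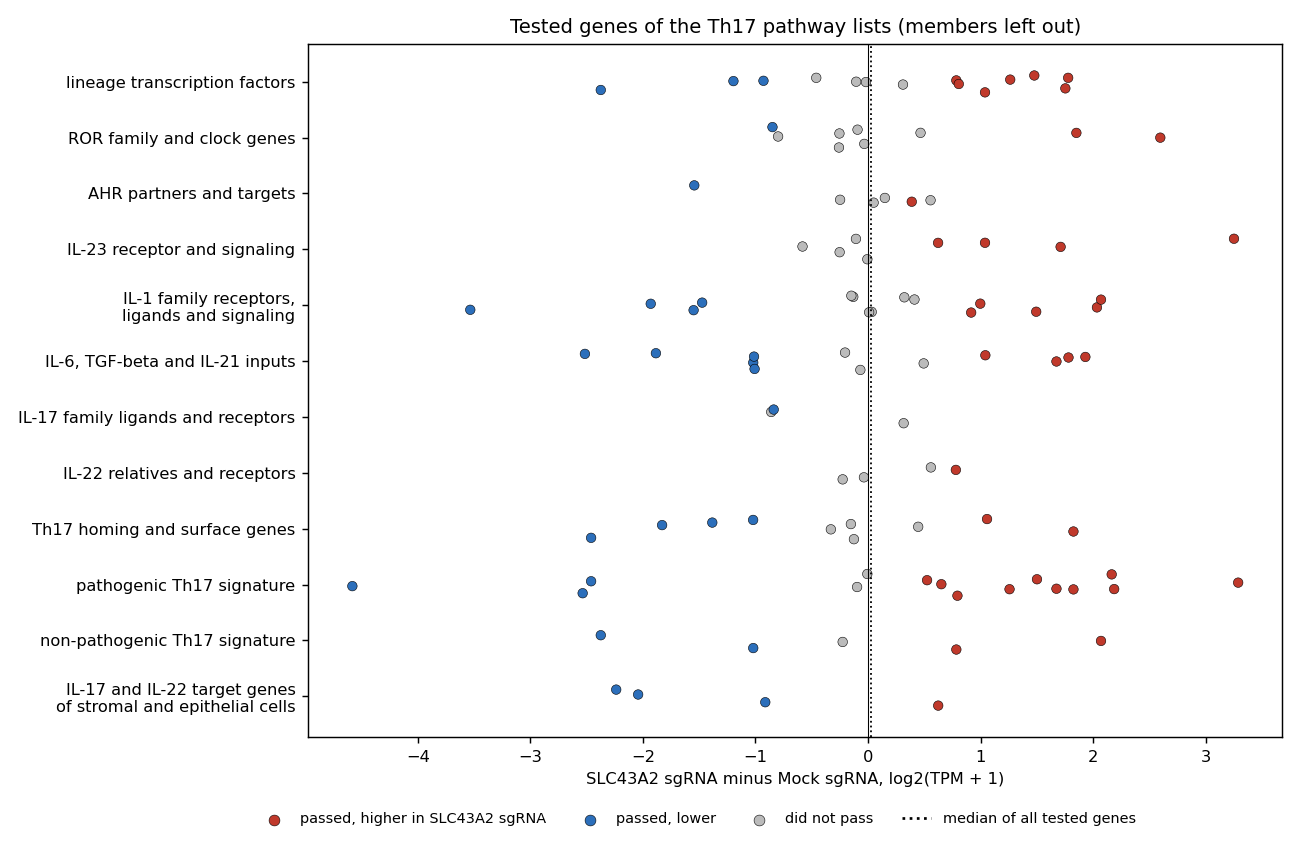
Difference in log2(TPM + 1), SLC43A2 sgRNA minus Mock sgRNA, for each tested gene of the 12 pathway lists; each point is a gene, colored by whether it passed limma's adjusted p of 0.05, and the dotted line is the median of all tested genes (0.03). Higher and lower genes occur side by side in most lists, and 34 of the 95 points passed as higher and 24 as lower.

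The program's name is used for the genes and not as a statement that the RNA is from Th17 cells. Rorb, a relative of Rora, was listed at no more than 0.09 TPM in any library.

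Of the 14 tested lineage transcription factors, 7 rose and 3 fell (71.4% passed, median 0.55). Irf4, which opens Th17 loci together with Batf, rose from 28.6 to 98.0 TPM (log2 difference 1.75, limma adjusted p = 0.000967). Hif1a, the hypoxia factor that promotes Th17 differentiation, rose from 68.9 ± 11.0 to 239.1 ± 40.3 TPM (1.78, SE 0.18, adjusted p = 0.00057). Stat3, named after its values were seen, rose by 1.04 (adjusted p = 0.00575). Maf moved the other way. Maf, a factor that promotes Il10 and Il21, fell from 11.9 ± 2.26 to 1.46 ± 0.272 TPM (-2.38, SE 0.19, adjusted p = 0.000213), and Ikzf1 fell by 1.20 on the log2 scale (adjusted p = 0.00135).

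Among the 9 tested ROR family and clock genes, 2 rose and 1 fell (33.3% passed, median -0.09), a share below that of all genes. Bhlhe40, a repressor of clock genes that also supports cytokine production in T cells, rose from 24.4 to 154.5 TPM (2.60, adjusted p = 0.000173). Nfil3, a repressor tied to the circadian clock, rose from 9.78 to 38.0 TPM (1.85, adjusted p = 0.000634). Clock fell from 7.19 to 3.51 TPM (-0.85, adjusted p = 0.0122), which missed the threshold when SLC43A2 sgRNA replicate 3 was left out (adjusted p = 0.0517; range over alternatives 0.00578 to 0.0517).

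The partners and targets of Ahr did not move as a block: of 6 tested, 1 rose and 1 fell (33.3% passed, median 0.10). Gpr15, a homing receptor that Ahr induces, fell from 3.997 to 0.693 TPM (-1.54, adjusted p = 0.00341). Ptges3, a chaperone in the cytosolic Ahr complex, rose from 133.1 to 175.6 TPM (0.39, adjusted p = 0.0458). That call was lost in 9 of 16 alternatives, 5 of which left out 1 library (any but SLC43A2 sgRNA replicate 2), with adjusted p from 0.0153 to 0.256. Tiparp, a direct Ahr target named after its values were seen, had a log2 difference of 0.15 (adjusted p = 0.569). Cyp1a1, the classic Ahr target, was at no more than 0.05 TPM in any library, and Cyp1b1 was listed at 0 in all 6.

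**Figure D3:**
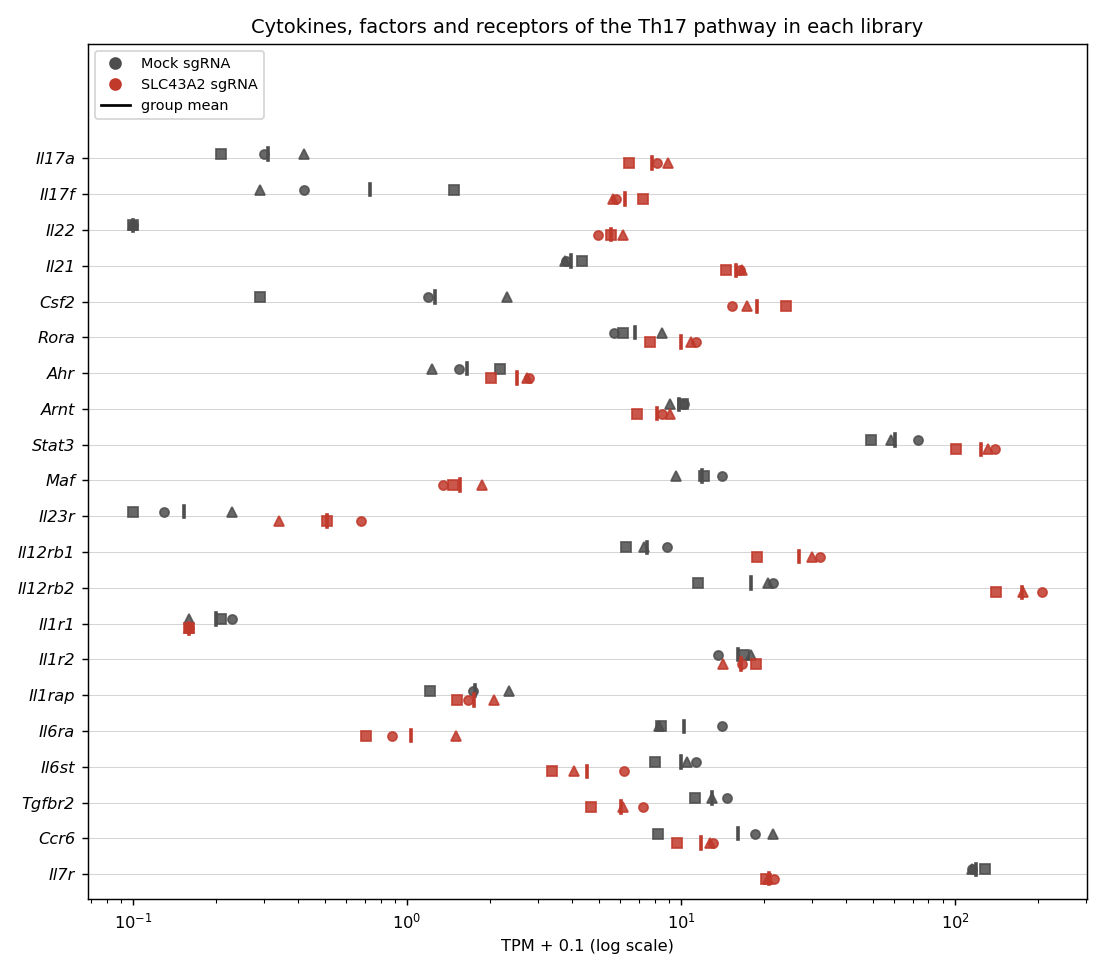
TPM + 0.1 on a log axis for Th17 cytokines, factors and receptors in each library; gray and red points are the 3 Mock sgRNA and the 3 SLC43A2 sgRNA libraries (circle, square and triangle for replicates 1, 2 and 3), and ticks are group means. Il17a, Il17f, Il22, Il21 and Csf2 lie higher in SLC43A2 sgRNA, whereas Maf, Il6ra and Il7r lie lower and Ccr6, Il1r2 and Il1rap overlap.

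On the IL-23 side, 4 of 8 tested genes rose and 0 fell (50% passed, median 0.31). Il12rb1, the chain with which Il23r pairs, rose from 7.40 ± 1.32 to 26.9 ± 7.05 TPM (1.71, adjusted p = 0.00174). Il12rb2, which pairs with the same chain to read IL-12 and not IL-23, rose from 17.9 to 175.2 TPM (3.25, adjusted p = 0.000222). Both were thus far above the 0.41 TPM of Il23r in the SLC43A2 sgRNA libraries. Exons of Il12rb2 share 40% of their bases with Serbp1 on the opposite strand, so its values may hold reads of that gene.

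IL-1 family genes split, with 5 of 15 tested genes higher and 4 lower (60% passed, median 0.03). The ligand gene Il1a rose from 0.147 to 3.68 TPM (2.04, adjusted p = 0.000967), and Il1rn, the soluble antagonist of the IL-1 receptor, rose from 1.01 to 6.70 TPM (2.07, adjusted p = 0.00586). The other IL-1 ligand gene, Il1b, fell from 12.3 to 3.70 TPM (-1.47, adjusted p = 0.00186). Il18 fell from 20.5 to 0.947 TPM (-3.54, adjusted p = 0.000274), and Il18rap, a chain of its receptor, fell by 1.93 on the log2 scale (adjusted p = 4e-04). Il1r2, the decoy receptor, was at 13.51, 16.8 and 17.91 TPM in Mock sgRNA and at 16.63, 18.69 and 14.07 TPM in SLC43A2 sgRNA (0.03, adjusted p = 0.887). Decoy receptor transcripts therefore exceeded those of Il1r1, in TPM, in every library of both groups. Il1r2 and Il1b were named after their values were seen.

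The inputs that start the program moved in both directions, with 4 of 12 tested genes higher and 5 lower (75% passed, median -0.14). Il21, a cytokine that Th17 cells both make and read, was at 3.69, 4.25 and 3.68 TPM in Mock sgRNA and at 16.27, 14.46 and 16.54 TPM in SLC43A2 sgRNA. It rose by 1.78 (SE 0.14, adjusted p = 0.000192), and its receptor gene Il21r rose from 42.5 to 167.6 TPM (1.93, adjusted p = 0.0018). Il6ra, the ligand-binding chain of the IL-6 receptor, fell from 10.2 ± 3.30 to 0.933 ± 0.421 TPM (-2.52, adjusted p = 0.000646). Smad7, an inhibitor of TGF-beta signaling, fell by 1.88 on the log2 scale (adjusted p = 0.00148). Tgfbr1 and Tgfbr2, the TGF-beta receptor chains, named after their values were seen, fell by 1.01 and 1.01 (adjusted p = 0.00459 and 0.00588). The ligand gene Tgfb3, named in the same way, rose from 0.503 to 3.80 TPM (1.675, adjusted p = 0.00188).

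On the response side, few genes of the IL-17 and IL-22 receptors were expressed highly enough to test. Of the IL-17 family ligands and receptors, 3 of 10 were tested; 0 rose and 1 fell. That gene, Traf3ip2, the adaptor of the IL-17 receptor, fell from 37.7 to 20.6 TPM (-0.84, adjusted p = 0.00451). The shared receptor gene Il17ra, named after its values were seen, had a log2 difference of -0.86 (adjusted p = 0.0799). Among relatives and receptors of IL-22, 1 of 4 tested genes rose, namely Il10ra, a receptor chain for IL-10 (0.78, adjusted p = 0.0249). Its call was lost in 5 of 16 alternatives, 4 of which left out Mock sgRNA replicate 1 or 2 or SLC43A2 sgRNA replicate 1 or 3 (adjusted p from 0.00603 to 0.0896). Il22ra1, the receptor chain that confers response to IL-22, was at no more than 0.03 TPM in any library.

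Homing and surface genes of Th17 cells held 2 genes that rose and 4 that fell among 10 tested (60% passed, median -0.24). Icos, a costimulatory receptor, rose from 89.3 to 316.3 TPM (1.83, adjusted p = 0.000226), and Ltb4r1, a leukotriene receptor, rose by 1.06 (adjusted p = 0.00567). Il7r, the IL-7 receptor, fell from 119.7 to 20.9 TPM (-2.46, adjusted p = 2.48e-05), and Klrb1f fell by 1.83 on the log2 scale (adjusted p = 0.00445). Ccr6, the chemokine receptor typical of Th17 cells, was at 18.5, 8.14 and 21.49 TPM in Mock sgRNA and at 12.99, 9.59 and 12.61 TPM in SLC43A2 sgRNA. It did not pass (-0.33, adjusted p = 0.455), except without Mock sgRNA replicate 2 (-0.73, adjusted p = 0.0284; range over alternatives 0.0284 to 0.867).

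The pathogenic Th17 signature, a set of genes known from Th17 cells that cause autoimmune inflammation in mice, held 10 of 15 tested genes that rose and 3 that fell (86.7% passed, median 0.80). Csf2, which encodes GM-CSF, rose from 1.16 to 18.9 TPM (3.29, adjusted p = 0.000849), and Tbx21, the Th1 factor T-bet, rose from 18.0 to 86.0 TPM (2.19, adjusted p = 0.000962). Several of these genes are shared with Th1 and cytotoxic T cells, such as Tbx21 and Gzmb. Ccl5, a chemokine of cytotoxic cells, fell from 2919 to 120.8 TPM (-4.58, adjusted p = 1.04e-06), and Casp1 fell by 2.54 on the log2 scale (adjusted p = 4.84e-05). Exons of Csf2 overlap Gm12223 on the opposite strand over 12% of their bases. In the non-pathogenic signature, 2 of 5 tested genes rose and 2 fell (median -0.23). The risers were Il1rn and Ikzf3, the gene of Aiolos (0.78, adjusted p = 0.00829). The fallers were Maf and Il6st, the signal chain of the IL-6 receptor (-1.02, adjusted p = 0.0124).

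Of the genes that IL-17 and IL-22 induce in stromal and epithelial cells, 4 of 14 were tested, of which 1 rose and 3 fell (median -1.48). S100a8 and S100a9, which neutrophils also express strongly, fell by 2.24 and 2.04 on the log2 scale (adjusted p = 0.000338 and 0.000351). Cxcl2, a chemokine for neutrophils, rose by 0.62 (adjusted p = 0.033). Its call was lost in 7 of 15 alternatives, 4 of which left out Mock sgRNA replicate 1 or 3 or SLC43A2 sgRNA replicate 1 or 3 (adjusted p from 0.00573 to 0.121).

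Markers of cells that could carry the program, and of other cells, differed between the groups by list. Beside the counts given for these lists, 22.8% of all tested genes were higher and 22.2% lower. Alpha beta T cell markers summed to 9073 to 10160 TPM in Mock sgRNA and 7643 to 8083 TPM in SLC43A2 sgRNA, with 1 of 10 tested genes higher and 3 lower. Cd247 rose, while Cd3g, Cd8b1 and Trbc2 fell (limma adjusted p = 0.0136, 0.00128, 0.00443 and 0.0175). Cd4, named after its values were seen, was at 55.83, 32.4 and 44.56 TPM against 50.3, 31.55 and 42.16 TPM (-0.09, adjusted p = 0.791). Cd4 thus overlapped between the groups, and the share of CD4+ T cells was not measured.

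Gamma delta T17 markers summed to 66.5 to 76.9 TPM in Mock sgRNA and 64.7 to 76.6 TPM in SLC43A2 sgRNA, with 1 of 8 tested genes higher and 2 lower. Trdv4 rose from 2.50 to 7.02 TPM (limma adjusted p = 0.00292), while Blk and Scart2 fell (adjusted p = 0.000198 and 0.017). Group 3 innate lymphoid cell markers summed to 213.4 to 235.8 and to 142.2 to 174 TPM, with 1 of 8 higher and 3 lower. Group 2 innate lymphoid cell markers summed to 23.1 to 37.4 and to 30.1 to 33.1 TPM, with 2 of 7 higher and 2 lower. Most of that sum was Gata3, at means of 17.47 and 16.74 TPM, so it hides changes of the other genes. Il5 rose from 0.0167 to 3.52 TPM and Arg1 from 0.393 to 3.00 TPM (limma adjusted p = 0.000428 and 0.00412). Klrg1 and Hpgds fell (adjusted p = 0.00676 and 0.0334). In the invariant NKT and MAIT list the sums were 29.7 to 34.3 and 23.0 to 72.3 TPM, with 1 of 4 higher and 1 lower. Trav1 rose from 9.67 to 19.56 TPM (limma adjusted p = 0.0105), and Cd1d1 fell from 19.5 to 4.33 TPM (adjusted p = 0.000226). Cd1d1 and Mr1, also in this list, encode molecules that present antigen to these cells and do not mark the cells themselves. Cd1d1 was at 18.35 to 21.27 TPM in Mock sgRNA, most of the list's sum there, so that sum is no measure of these cells. Trav11 was at 37 TPM in SLC43A2 sgRNA replicate 3 and listed at 0 in every other library. The defining Traj18 and Traj33 were listed at 0 in every library, which is not read as absence of these cells. The sums of the gamma delta, group 2 and NKT and MAIT lists thus overlapped between the groups. That of the group 3 list was lower in SLC43A2 sgRNA, where its most abundant Mock sgRNA gene, Il7r, fell from 119.7 to 20.9 TPM. Il7r is also among the surface genes of Th17 cells above. Ncr1 and Nrp1 fell as well, while Lta rose from 24.8 to 78.0 TPM, so this sum mostly follows Il7r.

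Markers of B cells, myeloid cells and erythroid cells were lower in SLC43A2 sgRNA. Of B cell markers, 9 of 9 tested genes fell, with sums of 3039 to 3848 against 207.9 to 229.1 TPM. Of macrophage and monocyte markers, 9 of 10 fell, with sums of 591.1 to 690.3 against 68.1 to 78.2 TPM. Of neutrophil markers, 7 of 8 fell, with sums of 457.6 to 649.5 against 104.9 to 126.8 TPM. Of erythroid markers, 5 of 6 fell, with sums of 712.8 to 785.4 against 30.4 to 37.7 TPM. The fibroblast list gives no measure of fibroblasts here: its sums of 337 to 625.4 and 82.2 to 161.2 TPM were almost wholly Thy1, a gene of all mouse T cells, which fell, and its other genes were at no more than 0.35 TPM. The endothelial sums of 15.0 to 19.9 and 4.66 to 7.43 TPM were likewise mostly Pecam1, which leukocytes also express and which fell, with the other genes at no more than 0.73 TPM. In the hepatocyte and hepatoma list the sums were 17.8 to 36.4 and 4.67 to 6.18 TPM, and 1 of 2 tested genes fell, Trf. Alb, the gene of albumin, and Col1a1, of collagen I, were listed at 0 throughout. The part of cell makeup in the Th17 gene levels was not tested.

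**Figure D4:**
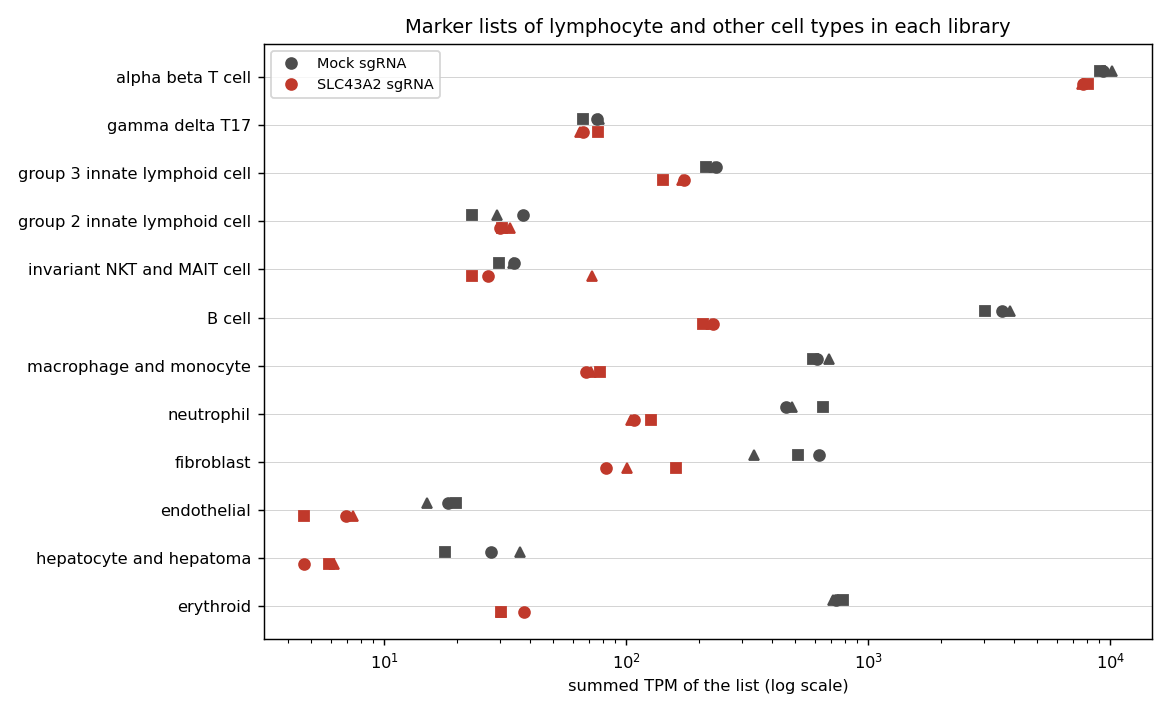
Summed TPM of each cell type marker list in the 6 libraries, on a log axis; gray and red points are Mock sgRNA and SLC43A2 sgRNA libraries. The sums for B cells, macrophages, neutrophils and erythroid cells are lower in SLC43A2 sgRNA (B cells 3039 to 3848 against 207.9 to 229.1 TPM), while gamma delta T17 sums overlap; the fibroblast and endothelial sums are mostly Thy1 and Pecam1, which T cells and other leukocytes express.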

How the data were processed

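RNA of tumor-infiltrating lymphocytes was profiled in 3 Mock sgRNA and 3 SLC43A2 sgRNA libraries, grouped and numbered by their titles. The authors deposited gene-level TPM, rounded to 2 decimals and scaled to a common sum per library. TPM keeps no read counts, so depth and counting error are unknown and no interval is given. The submitters' processing notes name Bowtie 0.12.2 and mm8 without their roles. Counting tool and annotation: not given in the sources used here. Since 51884 (90.7%) of the gene identifiers are in GENCODE M21, the build behind the table is uncertain; positions were taken from M21 (GRCm38) by identifier and promoters from RefSeq (6 of the 7 genes matched). Per the labels' protocols a TruSeq kit, which does not mark strand, was used on total RNA. That text speaks of retinas and may not describe these samples.

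Differences were computed on log2(TPM + 1), which understates the change of low genes. The fit was limma 3.58.1 in R 4.3.3 (two-sided, eBayes trend on the mean level) over the 13759 genes (24.1%) with a mean of at least 1 TPM. P-values were Benjamini-Hochberg adjusted over all of these, at a threshold of 0.05. The fit was tested on simulated data. Ratios are of mean TPM. The 7 genes, the 12 pathway lists and the 12 marker lists were chosen with earlier results of these data known. Besides the 7 genes, Slc43a2, Rorb, Ccr6 and Il21, a rule named up to 2 genes of largest rise and 2 of largest fall past the threshold in each pathway list and the 3 nearest profiles. The same rule takes the most abundant gene of each marker list, which is given here by the list's sum; some genes it takes are left out. Alternatives covered pseudocounts, filters, scalings, the variance model, the replicate number as a block, and the omission of each library.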

Additional observations from a re-analysis of the deposited data

How the results depend on the processing

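Under the 16 alternatives the log2 difference was above 0 in every case for Il17a (2.76 to 4.71), Il17f (2.00 to 3.45), Il22 (2.62 to 5.79), Rora (0.40 to 0.68), Ahr (0.30 to 0.85) and Il23r (0.33 to 1.77). It was below 0 in every case for Il1r1. The highest values of the cytokines and Il23r came at a pseudocount of 0.1. No named gene that passed reversed its direction. The number of pathway genes called ranged from 27 to 37 higher and from 19 to 26 lower, and of all genes from 4262 to 6522. With the replicate number as a replicate block, 34 pathway genes were higher, 26 lower and 6357 of all genes passed. The deviations of same-numbered libraries had correlations of 0.001, 0.061 and -0.031. Those values do not settle whether same-numbered libraries were paired, and the labels do not say. The median of all tested genes was 0.03 in the main setting, 0.14 after quantile normalization and 0.17 after scaling to T cell receptor constant regions. Beyond the calls given above, Il17ra passed with median-of-ratios scaling (adjusted p = 0.0412) and with the block (0.0288), within a range of 0.0288 to 0.215. The adjusted p of Slc43a2 ranged from 0.0504 to 0.405. Depth is unknown, so the counting error of values near 0, such as those of Il1r1 and Il23r, cannot be estimated.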

Other observations

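Some genes of the same pathway stayed below the filter and were therefore not tested; they were picked here after their values were seen. Ccl20, the ligand of Ccr6 and a chemokine that Th17 cells make, was listed at 0 in all 3 Mock sgRNA libraries and was at 0.57, 1.25 and 0.93 TPM in SLC43A2 sgRNA. Il24, a cytokine of the IL-10 family like Il22, was listed at 0 in Mock sgRNA and was at 0.25, 0.6 and 0.97 TPM in SLC43A2 sgRNA. Il23a, which encodes the specific subunit of IL-23, was at 0, 0.05 and 0.05 TPM in Mock sgRNA and at 0.87, 0.29 and 0.54 TPM in SLC43A2 sgRNA. In these 3 genes the groups did not overlap, at levels of at most 1.25 TPM. Nothing is read from that, because they were picked on these values. Among tested genes, which these are not, every SLC43A2 sgRNA library lay above every Mock sgRNA library in 28.7%. Il6 was at 0, 0.13 and 0.08 TPM in Mock sgRNA and at 0.81, 0.12 and 0.84 TPM in SLC43A2 sgRNA, where replicate 2 made the groups overlap. Il9, made by some T helper cells, was listed at 0 in Mock sgRNA and was at 1.09, 0.38 and 0 TPM in SLC43A2 sgRNA.

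Genes that IL-17 induces in stromal and epithelial cells differed among themselves. Cxcl1, a neutrophil chemokine, was at 0.04, 0 and 0 TPM in Mock sgRNA and at 2, 1.43 and 1.85 TPM in SLC43A2 sgRNA. Saa3, an acute phase protein, was listed at 0 in Mock sgRNA and was at 1.04, 0.73 and 1.38 TPM in SLC43A2 sgRNA. Lcn2, an antimicrobial protein that neutrophils also carry, was at 10.52, 7.72 and 9.62 TPM in Mock sgRNA and fell to 4.55, 3.83 and 4.96 TPM (limma adjusted p = 0.00604).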
